A study of Mus musculus with 28 samples.

Results

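Narrow H3K27me3 regions with Suz12 are stretches of chromatin under 5000 bp wide that carried trimethylated lysine 27 of histone H3 (H3K27me3) in control mesodermal cultures and were called there for Suz12, a core subunit of Polycomb repressive complex 2 (PRC2). The H3K27me3 regions of the 3 control replicates were merged where they shared at least 1 bp, and 6473 merged regions were called in 2 or more replicates. Of these, 1215 (18.8%) were under 5000 bp wide and overlapped a Suz12 region in both control replicates, and these are the members described here. The members were thus chosen by their control H3K27me3 and Suz12 calls, and those calls are given as a description with no test. The remaining merged regions were 4352 narrow regions without Suz12, 395 narrow regions with Suz12 in 1 control replicate, 496 regions of 5000 bp or more with Suz12 in both replicates (wide regions with Suz12), and 15 other wide regions.

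PRC2 is the enzyme complex that places H3K27me3, and Suz12 is needed for its stability and activity. In embryonic stem cells PRC2 gathers at CpG islands of silent developmental genes, where broad domains cover clusters of transcription factor genes and shorter ones sit at single promoters. BAF chromatin remodelling complexes carry either Brg1 or the related Brm as their ATPase, and acetylation of the same lysine (H3K27ac) marks active promoters and enhancers.

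The study asked how loss of Brg1 changes chromatin as mouse embryonic stem cells become mesoderm. The cells carried the label Brg1f/f; Actin-CreER, that is, floxed Brg1 alleles and a tamoxifen-activated Cre driven by an actin promoter. Control cultures received tetrahydrofuran (THF) from Day 2, and Brg1-deleted cultures received 200 nM 4-hydroxytamoxifen (4-OHT) in THF. Both were induced over the same 40 h with VEGF, Activin A and BMP4 and collected at Day 4, so that Brg1 was lost gradually during induction. Lists of enriched regions were used for H3K27me3 (3 THF and 3 4-OHT replicates), Suz12 (2 and 2), H3K27ac (2 and 2) and FLAG (3 replicates with normal Brg1). The FLAG samples carry the same cell line label, while the study's methods describe a FLAG-tagged Brg1 allele. The labels call the replicates biological duplicates or triplicates. The share of cells in which Brg1 was deleted was not measured in these lists.

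Each list gives positions with no score or read count, so read depth and the strength of a region are unknown. A member that is no longer called has passed below the calling threshold, which is not the same as a measured fold change. The H3K27me3 replicate 1 libraries of both conditions stood apart from the other replicates. The THF lists held 16959, 8798 and 8977 regions with a widest region of 9300, 94725 and 66425 bp in replicates 1, 2 and 3. The 4-OHT lists held 10394, 7872 and 6787 regions with a widest region of 7550, 43450 and 33350 bp. Replicate 1 therefore held more and shorter regions in each condition. The mean share of members called for H3K27me3 and its difference from narrow regions without Suz12 are given with and without it. Other H3K27me3 counts taken over all replicates include it. The covered length was also lower in 4-OHT than in THF in each same-numbered pair, at 8.38 and 4.74 Mb, 11.0 and 8.99 Mb, and 10.0 and 7.62 Mb. Suz12 lists covered 3.68 and 4.07 Mb in THF and 3.58 and 4.77 Mb in 4-OHT. When each mark's lists were trimmed to their widest regions, as many as its shortest list held, the mean share of members called in 4-OHT was 87.7% for H3K27me3 and 93.7% for Suz12 (89.6% and 96.4% with whole lists). The H3K27ac difference at members, 4-OHT minus THF, was then 2.63 points (2.10 with whole lists). Trimming did not equalize the covered length, whose part in these differences was not tested.

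Members had a median width of 2550 bp (quartiles 1800 and 3462 bp), against 700 bp for narrow regions without Suz12 and 7362 bp for wide regions with Suz12. In THF, 1075 members were called for H3K27me3 in replicates 1, 2 and 3, 136 in replicates 2 and 3 and 4 in replicates 1 and 2. Within a member, H3K27me3 was often split into pieces. Of the members called in each THF replicate, 57.4%, 14.3% and 30.8% held 2 or more separate regions in replicates 1, 2 and 3. H3K27me3 covered 43.6%, 91.4% and 83.1% of all member bases in THF replicates 1, 2 and 3, and Suz12 covered 33.1% and 36.0% in its THF replicates. Member borders were drawn from the H3K27me3 lists, so these shares are not compared between the marks.

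The width limit of 5000 bp cut through a continuous range. The widest members, all 4975 bp wide, lay at Smarcd3 (a BAF complex subunit of heart and muscle), Grm7 (a metabotropic glutamate receptor) and Nr3c2 (the mineralocorticoid receptor). At Nr3c2, H3K27me3 covered 2000, 4975 and 4375 bp in THF replicates 1, 2 and 3 and 1200, 4825 and 4025 bp in the 4-OHT replicates. Just past the limit were a region of 5000 bp at Slc26a4 (an anion exchanger), a region of 5000 bp at chr11:18772501-18777500 and a region of 5025 bp at chr10:42739226-42744250. At Slc26a4, H3K27me3 covered 3900, 4125 and 4225 bp in THF and 2950, 3200 and 3075 bp in 4-OHT, so its calls were kept in each 4-OHT replicate as they were at Nr3c2.

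Most members lay at promoters. Of the 1215 members, 1031 (84.9%, 95% exact binomial confidence interval 82.7 to 86.8) were within 2.5 kb of an annotated transcription start site (TSS) of the mm9 build, and 640 (52.7%) spanned one. A further 65 overlapped an exon, 18 lay in introns and 101 (8.31%) were intergenic. Among narrow regions without Suz12, 63.4% were within 2.5 kb of a TSS and 7.74% spanned one, and among wide regions with Suz12 these shares were 86.1% and 70.2%. Over all merged regions they were 70.4% and 22.7%. Members were wider than narrow regions without Suz12 (median 2550 and 700 bp), and a wider region can reach a TSS more easily. The part of width in these shares was not tested. Intervals here cover counting error only, since regions are not replicates. Of the members, 143 (11.8%) lay within 10 kb of a wide region and 267 (22.0%) within 10 kb of another member. Of narrow regions without Suz12, 14.3% and 21.9% lay as near to a wide region and to a member, and of those with Suz12 in 1 replicate 7.85% and 24.1%, so this clustering was not particular to members. Some genes had several members. For example, Gata4, a zinc finger factor of heart and endoderm, and Nkx2-2, a homeodomain factor of neural and endocrine cells, each had 4 within 2.5 kb of a TSS.

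The members were rich in CpG, a feature that did not enter their choice. Over the central 500 bp, the median ratio of observed to expected CpG was 0.547 (quartiles 0.332 and 0.747) in members, 0.237 in narrow regions without Suz12, 0.453 in narrow regions with Suz12 in 1 replicate, 0.485 in wide regions with Suz12 and 0.588 in windows centred on all 22380 protein-coding gene starts. The median GC content was 55.4% in members and 46.8% in narrow regions without Suz12. A window with at least 50% GC and a ratio of at least 0.6 was found in 489 members (40.2%), 4.99% of narrow regions without Suz12 and 47.6% of gene starts. It was found in 33.3% of wide regions with Suz12 and 28.9% of narrow regions with Suz12 in 1 replicate. Over all merged regions the share was 15.2% and the median ratio 0.296. Short motifs were counted on both strands of the same windows. The GC box GGGCGG was in 40.2% of members, 521 of the 4352 narrow regions without Suz12 and 52.6% of gene starts. The Ets site CCGGAAG was in 4.61%, 2.62% and 14.4%, and the Nrf1 site GCATGCGC, read by an activator of housekeeping promoters, was in 0.823%, 0.506% and 3.89%. Both activator motifs were scarcer in members than at gene starts. This was not particular to members, since the Ets and Nrf1 sites were in 3.23% and 0.605% of wide regions with Suz12. In all merged regions these shares were 3.23% and 0.603%. The GC box was in 39.3% of wide regions with Suz12 and 20.8% of all merged regions. The CCAAT box was in 36.9% of members, 51.0% of narrow regions without Suz12 and 48.0% of gene starts. The YY1 site AAGATGG was in 6.75%, 10.9% and 10.8%, the repeat GAGAGAGA in 8.40%, 8.66% and 6.68%, the REST motif part CAGCACC in 15.2%, 11.4% and 13.2%, and the E-box CAGCTG in 25.3%, 22.2% and 26.2%. In the same order, from CCAAT box to E-box, the shares in wide regions with Suz12 were 41.1%, 8.27%, 9.88%, 11.7% and 24.6%. In all merged regions they were 47.2%, 9.73%, 8.44%, 12.3% and 23.4%.

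Windows of 200 bp show this range of CpG content. Each was read from the plus strand of mm9 as near as possible to the middle of the longest stretch covered by Suz12 in both THF replicates, clear of annotated exons, with each CpG in capitals. Sertad4 (chr1:194681951-194682150, beside its TSS) is a member that lost every H3K27me3 call, and its window held 24 CpG at 66.0% GC. Esx1 (chrX:133655551-133655750, intronic) and Ebf4 (chr2:130188176-130188375, intronic) are members that lost every Suz12 call, and their windows held 7 and 5 CpG. Hoxa13 (chr6:52209226-52209425, intronic) kept all calls of both marks and its window held 6 CpG, and Foxc1 (chr13:31897801-31898000, outside annotated protein-coding genes) overlapped FLAG regions and held 7. A narrow region without Suz12 at Grb10 (chr11:11928876-11929075, intronic, read at the centre of the region) is shown for comparison and held 0 CpG. Another window of that class, not printed (chr4:97420651-97420850, intronic), held 3 CpG. Of member windows not printed, those at Aim1 and chr6:51130101-51130300 held 4 each and that at chr8:124861151-124861350 held 6.
Sertad4: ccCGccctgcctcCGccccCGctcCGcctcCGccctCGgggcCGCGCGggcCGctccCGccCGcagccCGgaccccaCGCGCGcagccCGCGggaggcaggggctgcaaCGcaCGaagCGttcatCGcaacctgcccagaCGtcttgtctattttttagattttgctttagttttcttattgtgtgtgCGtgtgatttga
Esx1: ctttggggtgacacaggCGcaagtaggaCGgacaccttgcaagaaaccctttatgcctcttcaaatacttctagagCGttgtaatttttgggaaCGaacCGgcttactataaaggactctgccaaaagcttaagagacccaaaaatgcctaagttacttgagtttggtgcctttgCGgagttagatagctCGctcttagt
Ebf4: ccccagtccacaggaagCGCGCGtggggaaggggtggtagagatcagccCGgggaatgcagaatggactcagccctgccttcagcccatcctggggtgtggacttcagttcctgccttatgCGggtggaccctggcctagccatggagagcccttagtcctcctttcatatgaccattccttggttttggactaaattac
Hoxa13: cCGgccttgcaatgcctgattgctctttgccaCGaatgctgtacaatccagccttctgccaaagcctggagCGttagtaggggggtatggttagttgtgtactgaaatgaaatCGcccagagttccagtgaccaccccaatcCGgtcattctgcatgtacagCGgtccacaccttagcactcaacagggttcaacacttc
Foxc1: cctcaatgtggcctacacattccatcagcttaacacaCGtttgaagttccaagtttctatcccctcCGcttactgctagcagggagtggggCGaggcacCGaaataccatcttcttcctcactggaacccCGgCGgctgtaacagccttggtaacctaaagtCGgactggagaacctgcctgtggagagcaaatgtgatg
Grb10 without Suz12: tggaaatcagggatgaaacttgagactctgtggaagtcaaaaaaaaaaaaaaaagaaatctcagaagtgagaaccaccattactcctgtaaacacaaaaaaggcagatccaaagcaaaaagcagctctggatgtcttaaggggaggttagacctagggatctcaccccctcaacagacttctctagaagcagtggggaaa

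A TSS of 938 protein-coding genes, 4.19% of the 22380 annotated, lay within 2.5 kb of a member, and a TSS of 438 (1.96%) within 2.5 kb of a wide region with Suz12. Genes near both numbered 56, and 1524 (6.81%) were near a narrow region without Suz12 and neither of these. Transcription factor genes of 8 developmental lists were near members less often than near wide regions when pooled, at 99 (24.8%) and 205 (51.4%) of 399 genes, which rested mainly on the Hox and other homeobox genes. Genes were counted as annotated entries, and the 99 include a repeated entry of Alx1. Of the 99, 38 (38.4%) were near both and are in both counts. Genes of the 8 lists made up 10.6% of the genes near members and 46.8% of those near wide regions. These counts describe the lists and were not tested.

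Hox genes, which set position along the body axis, were mostly at wide regions, 39 of 40, and 5 were near members, among them Hoxa13, Hoxd3, Hoxb7 and Hoxb2. Of 144 other homeobox genes, 45 (31.2%) were near members and 97 near wide regions, with Nkx2-2, Dlx6 and Gsc2 among those near members. The 45 are annotated entries and include a repeated entry of Alx1. Of 42 forkhead genes, 7 were near members (Foxc1, Foxa2, Foxd1 and Foxb1 among them) and 15 near wide regions. Sox genes counted 6 and 6 of 19, T-box genes 2 (Tbx21 and Tbx3) and 9 of 17, and GATA genes 2 (Gata4 and Gata3) and 4 of 6. Lineage factors of the basic helix-loop-helix class counted 13 near members and 17 near wide regions of 53, with Neurog2, Bhlha9, Heyl and Ascl2 leading the members. Developmental zinc finger factors counted 19 and 18 of 78, with Ikzf3, Ovol1, Prdm14 and Ebf4 at members. At Neurog2, a factor that drives neuron formation, H3K27me3 covered 1900, 3750 and 3750 bp in THF and 1775, 3500 and 3275 bp in 4-OHT replicates 1, 2 and 3. Suz12 covered 2250 and 2650 bp there in THF and 1675 and 1850 bp in 4-OHT.

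Secreted signals are given by family, beside 938 genes near members and 438 near wide regions in all, with no test of differences between families. Of 22 FGF ligand genes, 9 (40.9%) were near members and 0 near wide regions, led by Fgf20, Fgf3, Fgf9 and Fgf4. Of 19 Wnt ligand genes, 8 (42.1%) were near members and 5 near wide regions, led by Wnt6, Wnt7a, Wnt16 and Wnt5b. Ligands and antagonists of the TGF-beta family counted 10 of 47 near members and 4 near wide regions, led by Chrdl2, Bmp6, Nbl1 and Chrd. Wnt antagonists had 1 of 13 near a member (Sost, an inhibitor made by bone cells) and 3 near wide regions, and Hedgehog and Notch ligands and receptors had 1 of 15 (Jag2) and 5. At Fgf3, H3K27me3 covered 350, 4250 and 4575 bp in THF replicates 1, 2 and 3 and 100, 4150 and 4525 bp in 4-OHT. Replicate 1 was low there in both conditions.

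Genes of excitable and migrating cells were near members more often than near wide regions, a difference that was not tested. All genes together went the same way, at 4.19% near members and 1.96% near wide regions. Members lay near 35 of 138 genes for potassium, sodium and calcium channels (25.4%), 29 of 114 neurotransmitter receptor genes (25.4%) and 14 of 79 axon guidance genes (17.7%), and wide regions near 8, 2 and 2. Narrow regions without Suz12 alone lay near 32, 30 and 23 of them, beside 6.81% of all genes near that class alone and 4.19% near members. Members of these lists lay at the channel genes Cacna1e and Kcnq1, at the receptor genes Grm7, Sstr1, Grid1 and Htr6, and at the guidance genes Slit2, Epha10, Sema6d and Sema5b. Cadherins and protocadherins counted 9 of 59 near members, 2 near wide regions and 14 near narrow regions without Suz12 alone, led by Cdh8, Pcdh17, Cdh23 and Pcdh19. Solute carriers were near the background of all genes, at 14 of 328 (4.27%), led by Slc30a3, Slc7a10, Slc6a4 and Slc1a2. Of 83 ribosomal protein genes, 0 were near a member, and of 11 genes for PRC2 subunits and cofactors 1 was, Phf19, which encodes a Polycomb-like protein.

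Of 24 genes active in the primitive streak and early mesoderm, 4 were near members, namely Gsc, Cyp26a1, Lhx1 and Pdgfra, and 5 were near wide regions, with 3 genes in both counts, beside 4.19% and 1.96% of all genes. At Gsc, a homeodomain factor of the organizer, H3K27me3 covered 1000, 3425 and 4100 bp in THF and 0, 3825 and 4075 bp in 4-OHT, while H3K27ac covered 2050 and 3300 bp in THF and 725 and 925 bp in 4-OHT. The calls of both marks at the same region do not show whether they lie in the same cells. Of 13 genes that the study names as higher without Brg1, 3 were near members (Wnt6, Wnt4 and Wnt9a) and 6 near wide regions, and since the study chose that list on its own samples it is not independent evidence. At Wnt4, H3K27me3 covered 75, 1400 and 1300 bp in THF and 0, 1100 and 525 bp in 4-OHT. Suz12 covered 625 and 600 bp there in THF and 525 and 750 bp in 4-OHT.

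After Brg1 deletion most members were still called for H3K27me3. The 4-OHT replicates 1, 2 and 3 called 956 (78.7%, 95% exact binomial confidence interval 76.3 to 81.0), 1194 (98.3%, 97.4 to 98.9) and 1115 (91.8%, 90.1 to 93.3) of the 1215 members, a mean of 89.6% ± 9.98 (SD, n = 3). Over all 6473 merged regions these shares were 64.3%, 70.1% and 59.3%. In THF, which chose the members, the counts were 1079, 1215 and 1211. With replicate 1 of both conditions left out there were 1280 members, and the mean over 4-OHT replicates 2 and 3 was 95.4%. In all, 909 members (74.8%) were called in each 4-OHT replicate, 246 in 2, 46 in 1 and 14 (1.15%) in 0, against 15.8% of all merged regions called in no 4-OHT replicate. Of the 246, 203 were missing from replicate 1.

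A control replicate that had no part in the choice gives the level to read these shares against. When members were found from THF replicates 2 and 3, THF replicate 1 called 89.4% of them and 4-OHT replicate 1 called 79.5%. When they were found from replicates 1 and 3, THF replicate 2 called 100% and 4-OHT replicate 2 called 99.5%. When they were found from replicates 1 and 2, THF replicate 3 called 99.6% and 4-OHT replicate 3 called 93.9%. The unused THF replicate called more members than its 4-OHT partner in each of these 3 pairs, a difference that was not tested. In the other direction, the same rule applied to the 4-OHT lists found 1721 regions, of which the THF replicates called 86.5%, 99.1% and 98.4%.

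The length covered by H3K27me3 within the members was shorter in 4-OHT. It came to 1.39 and 0.894 Mb in THF and 4-OHT replicate 1, 2.92 and 2.46 Mb in replicate 2, and 2.66 and 2.04 Mb in replicate 3. The ratios of 4-OHT to THF were 0.642, 0.840 and 0.766, beside 0.565, 0.817 and 0.760 for the whole lists, 0.480, 0.571 and 0.484 for narrow regions without Suz12 and 0.734, 0.905 and 0.890 for wide regions with Suz12. Less length was covered in 4-OHT than in the same-numbered THF replicate at 1006 (82.8%), 1049 (86.3%) and 1051 (86.5%) members, beside 79.1%, 80.4% and 78.3% of all merged regions. It was less in each of the 3 pairs at 765 members (63.0%), beside 47.4% of all merged regions. A region with no THF call in a pair could not have less there. THF replicates 1, 2 and 3 called 88.8%, 100% and 99.7% of members, but 86.2%, 91.8% and 87.9% of all merged regions. The shares with less length therefore rest in part on the choice of members, and no excess at members is read from them. The members' ratios lay between those of the narrow regions without Suz12 and of the wide regions. THF calls had entered the choice of members, so no test was made.

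Whether a member was still called went with its width. In 5 groups of members of rising width, 4-OHT replicate 1 called 43.0%, 74.7%, 85.5%, 92.0% and 97.2%, replicate 2 called 92.8%, 98.4%, 100%, 100% and 100%, and replicate 3 called 71.3%, 92.0%, 97.1%, 97.9% and 100%. In the narrowest group, of 1600 bp or less, THF replicate 1 itself called 59.1%. Members called in 3, 2, 1 and 0 of the 4-OHT replicates had median widths of 2900, 1750, 875 and 662 bp. Their median CpG ratios were 0.512, 0.655, 0.686 and 0.657.

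Members were called for H3K27me3 in 4-OHT more often than narrow regions without Suz12, but most of that difference went with width. The latter were called at 56.0%, 56.6% and 43.9% in 4-OHT replicates 1, 2 and 3 (mean 52.2% ± 7.14, SD, n = 3), a difference of 22.7, 41.7 and 47.8 percentage points and a mean of 37.4. The exact two-sided sign-flip permutation test over the 3 replicates gave p = 0.250, the smallest it can give. Within 5 width groups, weighted by the number of members, the difference was -5.71, 11.9 and 14.5 points, a mean of 6.89 ± 11.0 (SD, n = 3; exact sign-flip permutation p = 0.500), so in replicate 1 members were called less often than regions of like width. In replicate 1 the same held before deletion. In the 5 groups THF replicate 1 called 59.1%, 90.8%, 96.7%, 97.5% and 99.2% of members. It called 82.0%, 98.3%, 100%, 100% and 100% of narrow regions without Suz12. THF replicates 2 and 3 called members at least as often in every group. In the narrowest, THF replicate 2 called 100% of members and 86.1% of narrow regions without Suz12. Over all widths, the mean THF share was 96.2% in members and 84.8% in narrow regions without Suz12. THF calls had entered the choice of regions. How much of the 4-OHT difference was present before deletion was not tested. In the narrowest group the widths still differed, with a median of 1200 bp in members and 625 bp in narrow regions without Suz12. With replicate 1 of both conditions left out, the difference was 33.0 points before and 8.79 points after this matching, with 8.01 and 9.56 points in replicates 2 and 3. No difference beyond the replicate spread was therefore shown once width was taken into account with all 3 replicates.

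Of the 14 members called for H3K27me3 in no 4-OHT replicate, 12 were at promoters, 4 had been called in THF replicate 1, and 9 had a 4-OHT region within 1 kb of their edge. They were small, with a median of 271 bp covered on average in THF. The 6 with the most control H3K27me3 were a region at chr8:124860426-124861950 that overlaps an exon of Zfpm1 (a GATA cofactor), and those at Sertad4, Zfp462 (a zinc finger protein), Slc35d3 (a nucleotide sugar transporter), chr2:29700851-29701700 over the microRNA gene Mir219-2, and Fgf9. At Sertad4, H3K27me3 covered 750, 1450 and 550 bp in THF replicates 1, 2 and 3 and 0 bp in each 4-OHT replicate, while Suz12 covered 450 and 100 bp in THF and 150 and 125 bp in 4-OHT. At the Zfpm1 region, H3K27me3 covered 0, 1525 and 1475 bp in THF, and Suz12 covered 225 and 575 bp in THF and 475 and 700 bp in 4-OHT. Suz12 was thus still called at both in the absence of an H3K27me3 call. At Slc35d3, H3K27me3 covered 200, 600 and 450 bp in THF, and at Zfp462 350, 925 and 0 bp. Zfp462 was also called for H3K27ac, which covered 650 and 425 bp in THF and 550 and 525 bp in 4-OHT. The Fgf9 member was 850 bp wide and lay beside another Fgf9 member of 3350 bp, where H3K27me3 covered 1875, 3350 and 3200 bp in THF and 1200, 2625 and 2675 bp in 4-OHT. The region at Mir219-2 was the single member with neither mark in any 4-OHT replicate.

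Suz12 was still called at nearly all members. The 4-OHT replicates 1 and 2 called 1147 (94.4%, 95% exact binomial confidence interval 93.0 to 95.6) and 1196 (98.4%, 97.6 to 99.1), a mean of 96.4% ± 2.85 (SD, n = 2). Of all 1988 Suz12 regions found in both THF replicates, 92.5% and 97.2% were called. Both replicates called 1142 members (94.0%), 1 replicate called 59 and neither called 14 (1.15%), beside 2.41% of the 1988 Suz12 regions. When only 1 Suz12 THF replicate chose the members, the unused THF replicate 1 called 84.8% and the 4-OHT replicates 89.0% and 96.4%, and the unused THF replicate 2 called 87.3% and the 4-OHT replicates 90.0% and 96.6%. Suz12 was thus called in 4-OHT at least as often as in a control replicate that had no part in the choice. Regions found by the same rule in 4-OHT were called for Suz12 at 82.0% and 83.1% in THF, in lists that held 2951 and 2913 regions against 3654 and 4016 in 4-OHT. The ratio of Suz12 covered length in 4-OHT to THF at members was 0.962 and 1.16 in replicates 1 and 2, beside 0.971 and 1.17 for the whole lists and 0.899 and 0.971 for wide regions with Suz12.

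Wide regions with Suz12 were called at 99.4% and 100% in the Suz12 4-OHT replicates. The difference of members from them was -4.99 and -1.56 points, a mean of -3.28 (exact two-sided sign-flip permutation test over 2 replicates, p = 0.500, the smallest it can give). The mean was -6.99 without Suz12 THF replicate 1 and -5.92 without Suz12 THF replicate 2 in the choice of regions, and -8.80 with Suz12 in either, so its size rested on that choice. The share also went with width: in the 5 groups of members of rising width, Suz12 4-OHT replicate 1 called 85.2%, 92.4%, 96.7%, 97.9% and 99.6% and replicate 2 called 96.6%, 95.6%, 100%, 100% and 100%. The widest members were thus called about as often as the wide regions. For H3K27me3, wide regions with Suz12 were called at 99.2%, 100% and 100%. The 2 marks together were called in every 4-OHT replicate at 867 members (71.4%), beside 24.9% of all merged regions and 98.6% of wide regions with Suz12. The THF calls of both marks had chosen the members, so nothing is read from this. The 6 of these with the most control H3K27me3 were at Hoxa13, chr6:51129026-51133625, Klrg2 (a lectin-like receptor), chr14:13168876-13173225 near Fezf2 (a forebrain zinc finger factor), chr14:62305926-62310500 and Dmrt2 (a factor of somites). At Hoxa13, H3K27me3 covered 3650, 4800 and 4575 bp in THF and 3050, 4500 and 4275 bp in 4-OHT, and Suz12 covered 2200 and 3150 bp in THF and 2325 and 2525 bp in 4-OHT. At Dmrt2, H3K27me3 covered 2975, 4900 and 4250 bp in THF and 2525, 4425 and 4175 bp in 4-OHT. Hoxa13, Dmrt2 and the region near Fezf2 lay 150, 425 and 250 bp from a wide region.

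The 14 members without a Suz12 call in 4-OHT had little Suz12 in THF, a median of 138 bp against 738 bp for members called in both 4-OHT replicates, and 5 had a 4-OHT Suz12 region within 1 kb. The 6 with the most control Suz12 were at Esx1 (a homeodomain factor of the placenta), chr2:130186376-130188425 in Ebf4, Cux2 (a homeodomain factor of cortical neurons), Mir219-2, chr1:133858351-133859325 in intergenic sequence, and Nr2f1 (a nuclear receptor of the nervous system). At Esx1, Suz12 covered 525 and 350 bp in THF and 0 and 0 bp in 4-OHT, and H3K27me3 covered 925, 1300 and 925 bp in THF and 250, 700 and 225 bp in 4-OHT. At Cux2, Suz12 covered 400 and 150 bp in THF, and H3K27me3 covered 0, 1675 and 1200 bp in THF and 0, 1400 and 1000 bp in 4-OHT. H3K27me3 was called in each 4-OHT replicate at 7 of the 14 (50.0%), beside 74.8% of all members.

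H3K27ac was not used to choose the members and was rare at them. THF replicates 1 and 2 called 73 (6.01%) and 48 (3.95%) members, and 4-OHT replicates 1 and 2 called 99 (8.15%) and 73 (6.01%). Over all merged regions the shares were 3.58% and 2.56% in THF and 4.93% and 3.65% in 4-OHT. Of wide regions with Suz12, 5.65% and 6.05% were called in THF and 8.47% and 8.06% in 4-OHT. The ratio of covered length in 4-OHT to THF was 1.46 and 1.34 at members and 1.46 and 1.31 over all merged regions. A higher value in 4-OHT was thus not particular to members. The mean share of members was 4.98% ± 1.45 in THF and 7.08% ± 1.51 in 4-OHT (SD, n = 2 each), a difference of 2.10 points. The exact two-sided permutation test gave p = 0.667, and 2 against 2 samples cannot go below 0.333. The difference was larger than the SD of either group and was 2.14 and 2.06 points in the same-numbered replicates, but THF replicate 1 and 4-OHT replicate 2 called the same number of members, so the groups met at their edges. The difference was 3.13 without THF replicate 1, 1.07 without THF replicate 2, 1.03 without 4-OHT replicate 1 and 3.17 points without 4-OHT replicate 2, so single H3K27ac libraries set its size. Of 18 alternative settings, 11 gave p = 0.333 by the exact permutation test.

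H3K27ac was called in all 4 replicates at 34 members (2.80%), in both 4-OHT and neither THF replicate at 7 (0.576%), and in both THF and neither 4-OHT replicate at 3 (0.247%). Over all merged regions these shares were 1.53%, 0.402% and 0.232%. The 6 of the 7 with the most H3K27ac lay at Aim1, Grhl2 (an epithelial factor), Arhgef7, Gata4, Lonrf3 and chr19:44907801-44910925 in Pax2 (a paired box factor of kidney and ear). At Aim1, H3K27ac covered 0 and 0 bp in THF and 1025 and 200 bp in 4-OHT, while H3K27me3 covered 1025, 2500 and 2100 bp in THF and 1125, 2300 and 2025 bp in 4-OHT. At this Gata4 member (chr14:63888376-63890550) H3K27ac covered 250 and 125 bp in 4-OHT, and H3K27me3 covered 1050, 2175 and 1550 bp in THF and 200, 1075 and 2075 bp in 4-OHT. Other Gata4 members were called for H3K27ac in all 4 replicates. At chr14:63859101-63863900, H3K27ac covered 1225 and 1975 bp in THF and 700 and 1275 bp in 4-OHT. At chr14:63865101-63865825 it covered 725 and 725 bp in THF and 600 and 725 bp in 4-OHT. H3K27me3 was called in each 4-OHT replicate at 4 of the 7 (57.1%), beside 74.8% of all members. It covered 0, 125 and 0 bp in 4-OHT at Lonrf3 and 300, 1000 and 0 bp at Grhl2. In THF it covered 0, 425 and 375 bp at Lonrf3 and 1500, 2425 and 200 bp at Grhl2. The 3 in the other direction, named after their values were seen, were Wnt2b (a Wnt ligand), Lhx1 and Adrb1 (an adrenergic receptor). At Lhx1, a homeodomain factor of early mesoderm, H3K27ac covered 50 and 300 bp in THF and 0 bp in 4-OHT.

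FLAG regions, which mark tagged Brg1, were called at 51 (4.20%), 50 (4.12%) and 0 (0%) members in replicates 1, 2 and 3, beside 3.01%, 2.61% and 0% of all merged regions. The lists held 8021, 8257 and 192 regions, so replicate 3 could add little. At least 2 replicates called 12 members (0.988%), beside 0.834% of all merged regions and 2.82% of wide regions with Suz12. The members' share was thus near the background by that rule and above it in replicates 1 and 2 taken singly, a difference that was not tested. The 6 with the most FLAG were at Foxc1 (a forkhead factor of mesoderm), Lhx1, Gata4, Pak6, Msx1 and Flt1 (a VEGF receptor). At Foxc1, FLAG covered 150 and 1000 bp in replicates 1 and 2, H3K27me3 covered 2225, 4700 and 4925 bp in THF and 1825, 4575 and 4600 bp in 4-OHT, and Suz12 covered 2250 and 2050 bp in THF and 1925 and 2450 bp in 4-OHT. At Flt1, FLAG covered 125 and 225 bp, and H3K27me3 covered 1250, 2150 and 1850 bp in THF and 1075, 1575 and 1200 bp in 4-OHT. Both Foxc1 and Flt1 were called for H3K27me3 and Suz12 in every 4-OHT replicate. The Gata4 member with FLAG (chr14:63865101-63865825) had neither mark called in 4-OHT replicate 1. Msx1 had no H3K27me3 call in 4-OHT replicate 2. Both of these members were called for H3K27ac in all 4 replicates. At the Gata4 member H3K27ac covered 725 and 725 bp in THF and 600 and 725 bp in 4-OHT. At Msx1 it covered 1100 and 1525 bp in THF and 575 and 1500 bp in 4-OHT. H3K27me3 was called in each 4-OHT replicate at 9 of the 12 members with FLAG, beside 74.8% of all members.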

How the data were processed

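ChIP-seq gave 17 lists of regions from 28 samples, 11 of them inputs. The authors deposited each list as enriched regions, with chromosome, start and end on mm9 and no signal or score, called per replicate over input. The list headers give a threshold of 1e-12 for H3K27me3, Suz12 and H3K27ac and 1e-06 for FLAG. Submitters' processing notes name Bowtie. All edges were multiples of 25 bp. H3K27me3 has fewer inputs than replicates, and which input served which replicate is not given in the sources used here. Merging, overlap of at least 1 bp and covered length were computed in Python 3.11.15 with NumPy 2.4.6, SciPy 1.17.1 and pysam 0.24.0, and checked on simulated regions. TSSs were from GENCODE M1. Members and gene lists were chosen with earlier results of these data known. Named members were the 3 on each side of the width limit, up to 6 per pattern of calls ranked by covered length, and up to 4 genes per list. Shares were compared over replicates by exact permutation. Same-numbered H3K27me3 libraries deviated together in covered length over the merged regions (correlations 0.941, 0.875 and 0.809 across regions, which are not independent), so the numbers were taken to pair these samples, although THF 2 with 4-OHT 3 and THF 3 with 4-OHT 2 gave 0.723 and 0.778. Suz12 and H3K27ac have 2 replicates each and share only a number. Alternatives were other widths, overlaps, replicate sets, joined or trimmed lists, promoter distances and width groups. Those leaving out H3K27me3 replicate 1 of both conditions, counting regions within 1 kb and using 10 width groups were chosen after seeing the data.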

Additional observations from a re-analysis of the deposited data

How the results depend on the processing

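Of 136 alternative values over 8 results, 115 kept the direction and side of the threshold of a test or, without a test, moved by less than the replicate spread, the counting interval or 1.5 times a count. The other 21 moved further, and no mean difference changed sign. No test here could pass a threshold of 0.05 with 2 or 3 replicates, so this says nothing of significance. The number of members was 748 when H3K27me3 regions within 1 kb were joined first, and ran from 1098 to 1433 when a replicate was left out. The mean share of members called for H3K27me3 in 4-OHT ran from 85.2% to 95.1% without single replicates. An unused THF replicate 2 or 3 called 100% and 99.6%. For Suz12 the mean share was 90.4% with Suz12 in either THF replicate and 92.7% to 98.4% without single replicates, an unused THF replicate called 84.8% and 87.3%, and regions found in 4-OHT were called at 82.6% in THF. The H3K27me3 difference from narrow regions without Suz12 shrank from 37.4 to 6.89 points in 5 width groups and 3.83 in 10, the latter added after seeing the data. The paired analysis (replicate block) gave 92.7% for H3K27me3 still called, and for H3K27ac the same 2.10 points with an exact sign-flip permutation p of 0.500. Over the H3K27ac alternatives the exact p ran from 0.333 to 1.00. The share of members near a TSS was 79.6% at 1 kb, 88.4% at 5 kb and 80.8% with protein-coding TSSs only. The median CpG ratio of members moved in 7 alternatives and ran from 0.472 without THF replicate 2 to 0.605 with regions joined, on both sides of the 0.588 of gene starts. The cause of these shifts was not tested.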

Other observations

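The 395 narrow regions with Suz12 in only 1 THF replicate lay between the members and the regions without Suz12 in the share called for H3K27me3 and Suz12 in each 4-OHT replicate. Their H3K27me3 was called at 66.1%, 93.4% and 75.7% in 4-OHT replicates 1, 2 and 3, and their Suz12 at 59.2% and 84.6% in 4-OHT replicates 1 and 2. They were not between them in FLAG calls by at least 2 replicates (2.03%, beside 0.988% of members) or in mean H3K27ac calls (5.57% in THF and 7.59% in 4-OHT, beside 4.98% and 7.08% of members). Of the 1721 regions that the rule found in the 4-OHT lists, 1061 (61.7%) overlapped a member, and 1033 members (85.0%) overlapped such a region.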
